A study of Mus musculus with 4 samples.

Results

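Described here are 5 carriers that mouse liver places on the sinusoidal, blood-facing side of the hepatocyte: Slc10a1, Slco1b2, Slco1a1, Slco1a4 and Slco2b1. They were taken by gene symbol from the 32285 genes of the deposited count tables. All 5 were found, and all 5 passed the low-count filter in every comparison below. The tables hold single-nucleus RNA counts of liver from mice fasted for 16 to 24 h (libraries fasted 1 and fasted 2) and from fed control mice (fed 1 and fed 2). Every library came from nuclei of 50 mg frozen liver, pooled over 8 mice and loaded with 10x chemistry 3.1, as the labels' protocols have it. Strain, sex, age and any allele were not given in the sources used here, nor whether both preparations of a feeding state share their mice. All p-values below hence reflect how much preparations vary, which may be technical in part or in full. The counts are of nuclear RNA and say nothing of protein amount or of its place in the membrane.

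Bile acids return from the gut in portal blood, cross the hepatocyte from the sinusoid, and are pumped out again into the canaliculus. Slc10a1 encodes Ntcp, the sodium-dependent carrier that takes up most conjugated bile acids. The Slco genes encode organic anion transporting polypeptides (Oatps), which work without sodium and take up unconjugated bile acids, bilirubin, steroid and thyroid hormone conjugates and many drugs. Slco1b2 encodes the main liver Oatp of the mouse. Slco1a1 and Slco1a4 encode close relatives with broad substrates. In mouse liver Slco1a1 is known as a male-predominant gene and Slco1a4 as a female-predominant one that CAR and PXR, the receptors for foreign chemicals, can induce. Slco2b1 encodes an Oatp of steroid sulfates that many tissues carry. Blood flows along the lobule from the portal vein to the central vein, so periportal hepatocytes meet incoming bile acids first.

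Of the 5 genes, 3 lie in 1 stretch of chromosome 6, with Gm5724 between Slco1b2 and Slco1a4 (build mm10, GRCm38; GENCODE M21 annotation). Slco1b2 spans 141629518 to 141686646 on the plus strand, Slco1a4 141805440 to 141856199 and Slco1a1 141907282 to 141946962 on the minus strand. Slc10a1 lies on chromosome 12 (80953183 to 80968705) and Slco2b1 on chromosome 7 (99657804 to 99711340), both on the minus strand. All 5 are annotated as protein-coding. Of the 50-base words in the annotated transcripts of Slco1a1, 1.64% also occur in another gene, and 1.61% of those of Slco1a4 do. Among the other genes are Slco1a5, Slco1a6 and each other. These are shares of transcript words, not of counts. The counting of reads in such stretches was not given in the sources used here, so the share of counts touched is not known.

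The promoters of the 3 carriers on chromosome 6 are shown because these were the carriers whose RNA differed along the lobule (below). Each sequence holds 250 bases before and 50 bases from the annotated start, on the gene's strand, from RefSeq (GRCm38.p6). All 5 members matched that table by symbol. Capitals mark matches to GTTAAT (the half-site of HNF1, a liver transcription factor), AGGTCA (a half-site of nuclear receptors), TCAAAG (the core of TCF/LEF, the factors of Wnt signalling) or TTCNNNGAA (the motif of STAT5, the factor of growth hormone signalling), searched on both strands.
Slco1b2, chr6:141629268-141629567, plus strand: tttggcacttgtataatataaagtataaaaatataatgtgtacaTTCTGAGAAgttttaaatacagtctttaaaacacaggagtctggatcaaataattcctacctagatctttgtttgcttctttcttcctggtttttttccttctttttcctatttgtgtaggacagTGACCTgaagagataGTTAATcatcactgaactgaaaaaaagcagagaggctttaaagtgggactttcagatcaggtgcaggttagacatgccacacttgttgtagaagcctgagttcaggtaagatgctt
Slco1a4, chr6:141856171-141856470, minus strand: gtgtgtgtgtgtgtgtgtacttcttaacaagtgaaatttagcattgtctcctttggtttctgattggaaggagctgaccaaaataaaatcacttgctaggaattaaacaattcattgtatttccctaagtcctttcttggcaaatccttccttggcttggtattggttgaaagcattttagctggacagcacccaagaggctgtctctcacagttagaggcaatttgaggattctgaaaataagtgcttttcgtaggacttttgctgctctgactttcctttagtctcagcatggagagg
Slco1a1, chr6:141946913-141947212, minus strand: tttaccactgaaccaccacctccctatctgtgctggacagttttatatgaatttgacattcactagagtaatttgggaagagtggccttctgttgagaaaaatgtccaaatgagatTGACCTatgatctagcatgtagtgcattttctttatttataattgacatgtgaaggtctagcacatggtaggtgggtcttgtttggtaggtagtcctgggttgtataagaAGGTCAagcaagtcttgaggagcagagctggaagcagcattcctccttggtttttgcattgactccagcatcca
The Slco1b2 window held 1 HNF1 half-site, starting 66 bases before the gene's start, 1 nuclear receptor half-site and 1 STAT5 motif. The Slco1a1 window held 2 nuclear receptor half-sites, and the Slco1a4 window held none of the 4 motifs. Of the 2 carriers not shown, Slc10a1 held 1 nuclear receptor half-site and 1 STAT5 motif over 2 windows. Slco2b1 held 2 STAT5 motifs over 3 windows. No window of the 5 carriers held the TCF/LEF core, so its absence does not set the 3 shown apart. Of all 32851 promoters in the table, 7.1% held the HNF1 letters, 16.3% the nuclear receptor letters, 16% the TCF/LEF letters and 8.3% the STAT5 letters. These are matches of letters, with no measurement of binding.

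After filtering, 10183 and 6626 nuclei remained in fasted 1 and fasted 2, against 8832 and 4177 in fed 1 and fed 2. Total UMIs (unique molecular identifiers, 1 count per captured transcript) per library ran from 8078755 to 30955600. Any pair of libraries shared between 8 and 33 cell barcodes. Nuclei were grouped by clusters without using any Slco or Slc10 gene, and the types were named from markers only. They are hepatocyte-like, stellate-like and so on, and are called hepatocytes, stellate cells and so on below. Hepatocytes numbered 5397 and 4566 in the fasted libraries, against 5067 and 3803 in the fed ones. The summed level of the 12 hepatocyte markers was between 11992 and 26044 CPM in them (counts scaled to a common total of each summed library), and none of the 12 was at 0. Both fed libraries stood apart. Fed 1 held nearly all of a hepatocyte cluster led by the acute-phase genes Saa2 and Saa1 (1729 nuclei). Fed 2 was the shallowest. Median UMIs in a hepatocyte were 2923 and 3239 in the fasted libraries, against 2548 in fed 1 and 1282 in fed 2. The hepatocytes of each library also fell mostly into clusters of their own. Clusters led by Gm15690 and Tomm40l held most of fasted 1, those led by Tmie and Hamp most of fasted 2, those led by Hsd3b5 and Saa2 most of fed 1, and 1 led by Gm15218 most of fed 2. Results on feeding are therefore given with and without these libraries.

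In hepatocytes, both fasted libraries lay above both fed ones for Slc10a1 and Slco1a4, and below them for Slco1a1. Slco1b2 and Slco2b1 overlapped between the groups. Slc10a1 stood at 139 and 266 CPM in fasted 1 and fasted 2, against 56.5 and 125 CPM in fed 1 and fed 2. Its log2 fold change, fasted minus fed, was 1.11 (SE 0.55; edgeR quasi-likelihood test, Benjamini-Hochberg adjusted p = 0.774). The groups did not overlap, but fasted 1 and fed 2 were close.

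Slco1b2 reached 3288 and 1682 CPM after fasting, against 2407 and 2288 CPM in the fed ones. The fasted values lay on either side of both fed values, and the log2 fold change was 0.03 (SE 0.39, adjusted p = 0.999 in edgeR). Slco2b1 reached 69.9 and 112 CPM after fasting, against 54.9 and 106 CPM in fed libraries (0.13, SE 0.47, adjusted p = 0.999 in edgeR). For both genes the spread within a group exceeded the difference between the groups.

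The 2 carriers known for their sex bias stood in opposite directions. Slco1a1 had 265 and 159 CPM in fasted libraries, against 845 and 455 CPM in fed ones. The log2 fold change of Slco1a1 was -1.64 (SE 0.41; edgeR adjusted p = 0.541, DESeq2 adjusted p = 0.0348). Slco1a4 had 539 and 607 CPM in fasted libraries, against 111 and 268 CPM in fed ones. That gave a log2 fold change of 1.54 (SE 0.50; edgeR adjusted p = 0.624, DESeq2 adjusted p = 0.176). The fasted libraries were close to each other for Slco1a4, while fed 2 was 2.42 times fed 1.

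**Figure D1:**
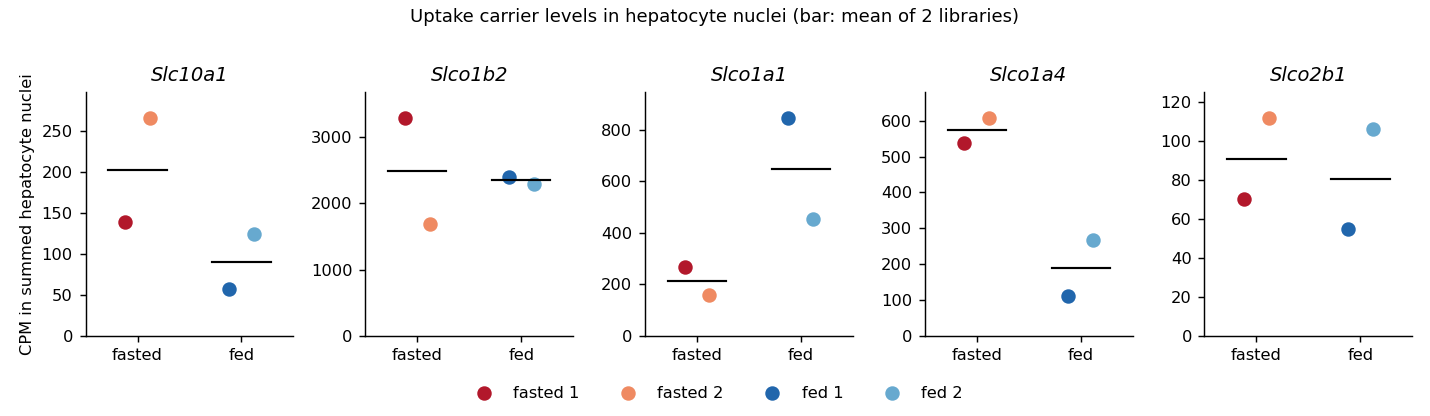
Level of each carrier in summed hepatocyte nuclei, in CPM, with 1 point per library and a bar at the mean of the 2 libraries of a group. The fasted points lie above both fed points for Slc10a1 (139 and 266, against 56.5 and 125) and Slco1a4, and below them for Slco1a1. They overlap for Slco1b2 and Slco2b1.

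None of the 5 carriers passed edgeR's adjusted threshold of 0.05 in this comparison, where 0.00715% of the 13987 genes tested were called higher and 0% lower. Before adjustment 2 of the 5, Slco1a1 and Slco1a4, had p under 0.05, against 6.81% of all genes. DESeq2 called 1 of the 5, Slco1a1, lower, against 0.643% of genes called lower and 0.543% higher. The groups did not overlap for 36.2% of all genes, 20.6% with the fasted libraries higher and 15.6% with them lower. Having 3 of 5 members without overlap is to be read against that share.

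The size of these differences depended on which library was left out. Without fed 2, edgeR called Slc10a1 higher (1.88, adjusted p = 0.0307), Slco1a4 higher (2.41, adjusted p = 0.000646) and Slco1a1 lower (-1.97, adjusted p = 0.00152), when 0.846% of genes were called higher and 0.907% lower. Without fed 1 the 3 values were 0.60, 0.99 and -1.21, and none was called. Without fasted 1 the values of Slc10a1, Slco1a4 and Slco1a1 were 1.51, 1.63 and -2.02, and without fasted 2 they were 0.51, 1.41 and -1.34, again with none called. Without the low-count filter, edgeR called Slco1a1 (-1.59, adjusted p = 0.00689) and Slco1a4 (1.60, adjusted p = 0.00672) among 0.591% of genes called higher and 0.515% lower. Without the acute-phase cluster, a setting chosen after the data were seen, the values of Slc10a1, Slco1a1 and Slco1a4 were 1.11, -1.81 and 1.49. None of the 3 was called there by edgeR, which called 1 gene higher and 0 lower. In these 3 genes the direction was the same under all 13 alternatives that were run. Over these, the adjusted p ranged from 0.0307 to 1.00 for Slc10a1, from 0.00152 to 1.00 for Slco1a1 and from 0.000646 to 1.00 for Slco1a4.

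**Figure D2:**
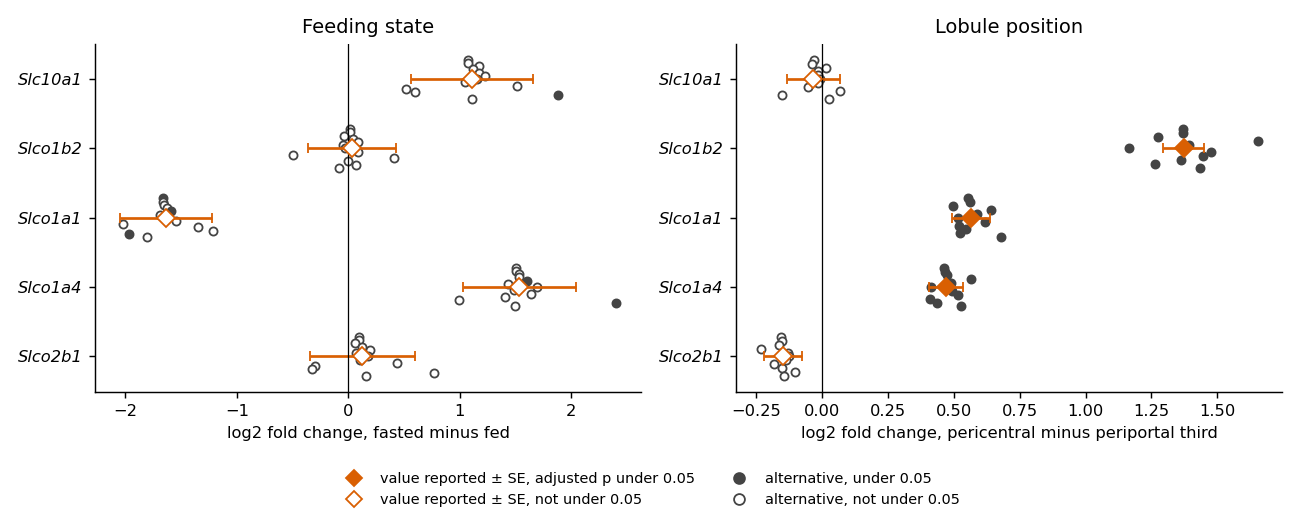
Log2 fold change of each carrier in hepatocytes, fasted minus fed on the left and pericentral minus periportal zone on the right, with diamonds for the value reported (± SE) and circles for each alternative setting, filled where the adjusted p was under 0.05. On the left most marks are open and the circles of Slco1a4 reach from 0.99 to 2.41; on the right every mark of Slco1b2, Slco1a1 and Slco1a4 is filled and above 0.

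Other gene sets differed between the libraries too, not all of them by feeding state. The summed level of 22 acute-phase genes in hepatocytes was 3453 and 1887 CPM in fasted libraries, against 7060.4 and 1622 CPM in fed 1 and fed 2. For 15 male-biased targets of growth hormone, among them Cyp7b1 and Nudt7, it was 3409.5 and 2083 CPM in fasted libraries, against 11815 and 3702 CPM in fed ones. Cyp7b1 alone held 966 and 935 CPM of it in fasted libraries, against 4882 and 1301 CPM in fed ones. For 12 female-biased targets the sum was 53.0 and 48.1 CPM in fasted libraries, against 2.32 and 60.7 CPM in fed 1 and fed 2. Most of that sum was the 1 gene Cux2 in fasted 1, fasted 2 and fed 2. Cux2 had 40.1 and 34.1 CPM in fasted libraries, against 0.831 and 39.6 CPM in fed 1 and fed 2. Genes without overlap between the groups were 2 of 22 in the acute-phase list (1 higher and 1 lower in fasted libraries), 8 of 15 in the male-biased list (2 and 6) and 3 of 12 in the female-biased list (1 and 2), against 20.6% higher and 15.6% lower over all genes. These shares are over the genes tested, which held 21 of the 22, all 15 and 4 of the 12 listed genes. The list counts thus take in genes that the shares leave out, most of all in the female-biased list. None of the genes of these lists was at 0 in all libraries. The Y-linked gene Ddx3y reached 215 and 94.4 CPM after fasting, against 232 and 87.8 CPM in fed libraries, and Xist reached at most 0.907 CPM. Nr1i3, the gene of CAR, had 728 and 465 CPM in fasted libraries, against 218 and 226 CPM in fed ones (log2 fold change 1.38, SE 0.34, edgeR adjusted p = 0.527). The summed level of 10 targets of CAR and PXR was 2930.1 and 2757 CPM in fasted libraries, against 1906 and 2626 CPM in fed ones. Of the 10, 2 were higher and 2 lower without overlap, and 8 were among the genes tested. The part of these genes in the carriers' values was not tested.

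The wider route of bile acids and organic anions through the hepatocyte gave no edgeR call either. Of 91 listed genes besides the members (other Slco and Slc10 genes, other sinusoidal uptake and binding, canalicular and sinusoidal export, conjugation, trafficking and regulators), 73 were tested and 0 passed. In edgeR 8 of them had an unadjusted p under 0.05, against 6.81% of all genes. DESeq2 called 1 higher and 2 lower, against 0.543% and 0.643% of all genes. Their median log2 fold change was -0.15, against -0.01 over all genes tested. The smallest p belonged to Acnat2, an acyltransferase related to the bile acid conjugating enzyme, with 19.5 and 21.4 CPM in fasted libraries, against 5.23 and 3.69 CPM in fed ones (2.16, SE 0.41, adjusted p = 0.462 in edgeR). Slc22a7, an organic anion carrier of the sinusoidal side, had 2.43 and 0.829 CPM in fasted libraries, against 17.2 and 11.97 CPM in fed ones (-3.19, SE 0.63, adjusted p = 0.462 in edgeR). Onecut1, a liver transcription factor, had 59.7 and 65.5 CPM in fasted libraries, against 580 and 114 CPM in fed ones (-2.46, SE 0.70, adjusted p = 0.577 in edgeR). DESeq2 called these last 3 genes.

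The other genes among the 8 with the smallest p, besides Nr1i3, are named by that rank, and none passed edgeR's adjusted threshold. Each was without overlap between the groups, as were 36.2% of all genes. Since the same libraries gave the rank, this adds nothing to it. Gsta2, a glutathione transferase that also binds organic anions, had a log2 fold change of 1.37. Slc27a2, a long-chain acyl-CoA synthetase that also activates bile acid precursors, had 0.96. Abcb4, which moves phospholipid into bile, stood at 1199 and 1000.2 CPM in fasted libraries, against 523 and 610 CPM in fed ones (0.91). Bcl6, a repressor that opposes STAT5, stood at 239 and 261 CPM in fasted libraries, against 340.0 and 695 CPM in fed ones (-1.11).

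Along the lobule, Slco1b2, Slco1a1 and Slco1a4 were higher near the central vein, and Slc10a1 and Slco2b1 showed no called difference. Hepatocytes were ordered within each library by a score of landmark genes, none of them a carrier: 9 pericentral genes such as Glul and Cyp2e1 minus 12 periportal ones such as Cyp2f2 and Cps1. Each library was cut into 3 equal zones by score. The zone of highest scores (pericentral) was compared with that of lowest scores (periportal), with library as a block (n = 4 libraries). Scores from odd-numbered and even-numbered landmarks correlated over nuclei at 0.652 and 0.673 in fasted libraries, against 0.615 and 0.610 in fed ones. These correlations describe nuclei of 1 library at a time and share its depth.

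Slco1b2 had the steepest slope of the 5. Its pericentral zone held 4467 and 2455 CPM in fasted 1 and fasted 2 and 3868 and 3464 CPM in fed 1 and fed 2. Its periportal zone held 1961 and 900.1 CPM in the fasted libraries and 1167 and 1484 CPM in the fed ones. The ratio of pericentral to periportal thus ran from 2.28 to 3.31 over the 4 libraries. The log2 fold change was 1.37 (SE 0.08, edgeR adjusted p = 2.1e-08). With 5 equal bins of the score in place of 3 zones, each step toward the central vein was upward in every library. In fed 1 the 5 values were 1044, 1387, 1972, 2947 and 4409 CPM, and in fasted 2 they were 853, 1074, 1588, 2101 and 2689 CPM. Of the 12314 genes tested apart from landmarks, 2.12% had a larger log2 fold change toward the central vein.

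Slco1a1 had 318 and 194 CPM in the pericentral zone of the fasted libraries and 1075 and 466 CPM in that of the fed ones. In the periportal zone it had 194 and 122 CPM in the fasted libraries and 659 and 403 CPM in the fed ones. The ratio was 1.64 and 1.58 in fasted, against 1.63 and 1.16 in fed libraries (log2 fold change 0.56, SE 0.07, edgeR adjusted p = 2.9e-05). In fed 2 the slope was the shallowest, and only 2 of its 4 steps between bins were upward.

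Slco1a4 had 616 and 757 CPM in the pericentral zone of the fasted libraries and 141 and 299 CPM in that of the fed ones. In its periportal zone it had 474 and 481 CPM in the fasted libraries and 91.5 and 247 CPM in the fed ones. The ratio was 1.3 and 1.57 in fasted, against 1.55 and 1.21 in fed libraries (0.47, SE 0.07, edgeR adjusted p = 4.5e-05). In both fasted libraries every step between bins was upward. In fed 1 and fed 2 the values went up and down over the first 4 bins and were highest in the last, at 160 and 344 CPM.

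The other pair gave no such slope. Slc10a1 had 141 and 247 CPM in the pericentral zone of the fasted libraries and 64.3 and 103 CPM in that of the fed ones, against 136 and 283 CPM and 46.2 and 132 CPM in the periportal zone. Its ratio was above 1 in fasted 1 and fed 1 and below 1 in fasted 2 and fed 2 (-0.03, SE 0.10, edgeR adjusted p = 0.893). Slco2b1 had a ratio below 1 in all 4 libraries, from 0.828 to 0.977, and a log2 fold change of -0.15 (SE 0.07, edgeR adjusted p = 0.205). A ratio below 1 in all 4 libraries was seen for 14.4% of all genes tested, and one above 1 for 17.5%.

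**Figure D3:**
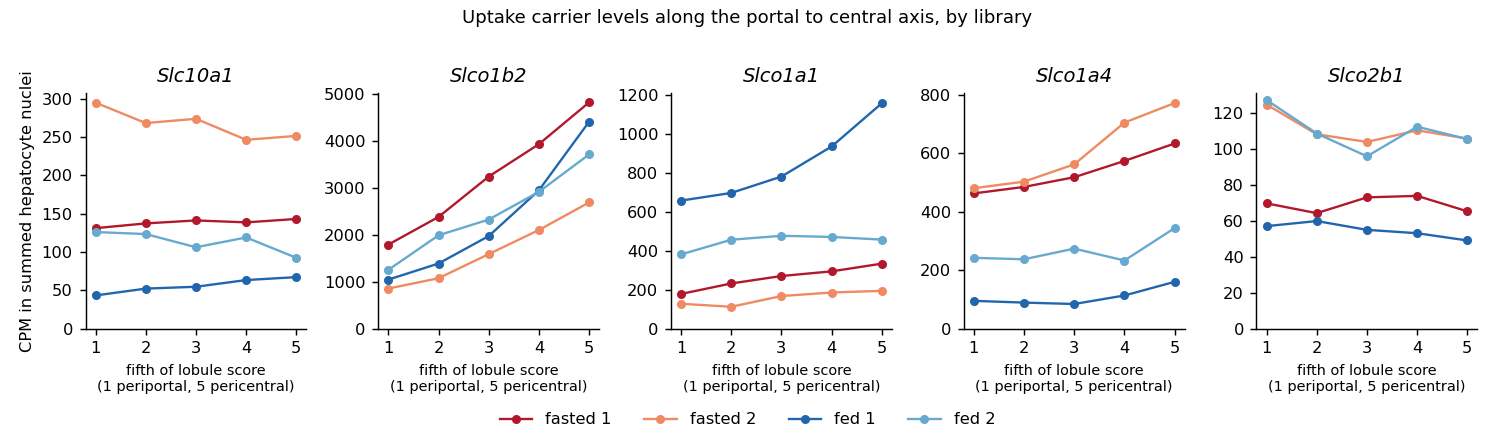
Level of each carrier in CPM over 5 equal bins of hepatocyte nuclei ordered by the landmark score within a library, from periportal (1) to pericentral (5), with 1 line per library. All 4 lines of Slco1b2 climb at each step, those of Slco1a1 and Slco1a4 end above their start, those of Slc10a1 go up in some libraries and down in others, and those of Slco2b1 end a little below their start.

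Thus 3 of the 5 carriers passed edgeR's test with a higher pericentral level, where 7.91% of genes were called higher and 7.91% lower. The call of each of the 3 held in all 11 alternatives that were run. Over these the log2 fold change of Slco1b2 ranged from 1.17 to 1.65, that of Slco1a1 from 0.50 to 0.68 and that of Slco1a4 from 0.41 to 0.56. Depth and other cell types' RNA differed between the zones too. The median UMIs per nucleus were 3314 and 3653 in the pericentral zone of the fasted libraries and 3154 and 2440 in that of the fed ones, against 2900 and 3158 and 2619 and 2218 in the periportal zone. Summed markers of endothelial cells were at 52.8 and 13.6 CPM in the pericentral zone of the fasted libraries and 32.5 and 29.3 CPM in that of the fed ones, against 19.7 and 1.97 CPM and 14.5 and 22.2 CPM in the periportal zone. Summed markers of Kupffer cells or macrophages went the other way in all 4 libraries, at 165 and 257 CPM in the pericentral zone of the fasted libraries and 166 and 145 CPM in that of the fed ones, against 194 and 327 CPM and 192 and 206 CPM in the periportal zone. Those of cholangiocytes were lower in the pericentral zone of all 4 libraries too. Those of T or NK cells were higher there in all 4, most in fasted 1 (58.6 CPM in the pericentral, against 8.96 CPM in the periportal zone), and those of stellate cells differed in direction between libraries. The part of depth and of these cells in the position differences was not tested.

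Of the 91 other listed genes of the route, 71 were tested by position, and 21 were called higher and 9 lower in pericentral hepatocytes by edgeR, against 7.91% of all genes each way. DESeq2 called 16 higher and 7 lower, against 5.32% and 5.17% of all genes. The counts by role that follow are to be read against the same shares. The median log2 fold change of the 71 was 0.06, against -0.01 over all genes. Of the 30 calls, 18 held under every alternative, and the other 12 were lost under at least 1. The 21, the 16 and the 18 include Slc22a27, Abcc4 and Slco3a1, described below. These passed the low-count filter through the zone where they were high, so their part of these counts supports nothing. Among the genes of sinusoidal uptake and binding, 6 of 15 were higher and 3 lower. Slc16a10, a carrier of aromatic amino acids, had a log2 fold change of 1.60 (edgeR adjusted p = 7.8e-11). Gsta3, a glutathione transferase, had 0.75 and Gsta2 0.49. Slc22a27, of the organic anion and cation carrier family, is among the 6, but with 7 to 38 UMIs in each pericentral zone and 1 in each periportal zone it passed the low-count filter through the zone where it was high, and its call supports nothing.

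On the periportal side of that list were Slc22a7 (-1.40, adjusted p = 0.000367 in edgeR), Slc17a2 (-0.52) and Slc17a3 (-0.40), the last 2 being organic anion and phosphate carriers. Of the export pumps into bile, 6 of 11 were higher in pericentral hepatocytes and 0 lower. They were Abcb4 (0.73), Abcg5 (0.45) and Abcg8 (0.66), a pair that exports sterols, Abcc2 (0.42), which exports conjugated organic anions, Abcg2 (0.31), a drug pump, and Slc47a1 (0.24), an organic cation exporter. Of the 6 listed pumps toward the blood, 2 were tested. Abcc3 was higher at 0.67. Abcc4 had 27 to 102 UMIs in each pericentral zone and 0 to 12 in each periportal zone, so that it passed the low-count filter through the zone where it was high and its call supports nothing.

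Of the regulators, 4 of 27 were higher and 4 lower. Ahr, the dioxin receptor, had 1.85, Rxra, the partner of many nuclear receptors, 0.61, Stat5a 0.50 and Nfe2l2, a regulator of the response to oxidants, 0.32. Onecut1 had -0.51, Cux2, a factor of the female-biased liver pattern, -0.48, Hnf4a, a central hepatocyte factor, -0.21 and Nr1h4, the bile acid receptor FXR, -0.17. Of the conjugation genes, Sult2a8, a sulfotransferase, had 1.03 and Baat, which joins bile acids to taurine, -0.21. Pdzk1, a scaffold that holds Oatps at the membrane, had 0.41. Of the other Slco and Slc10 genes, Slco2a1, a prostaglandin carrier, had -1.06. Slco3a1 was called higher on 6 to 66 UMIs in each pericentral zone and 1 to 5 in each periportal zone, with the same limit as Abcc4. Among the 12 calls lost under at least 1 alternative were those of Abcg2, Baat, Cux2, Gsta2, Hnf4a, Nr1h4, Pdzk1, Rxra, Slc22a7, Slc47a1 and Stat5a. Hnf4a was lost without fasted 2 (adjusted p = 0.106, the highest of a range from 0.00617) and Slc22a7 without fed 1 (adjusted p = 0.132, the highest of a range from 4.4e-06).

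The position difference of the carriers was also compared between feeding states, by the interaction of both. Slco1b2 differed by 1.29 in fasted, against 1.46 in fed libraries on the log2 scale, Slco1a1 by 0.67 against 0.47, and Slco1a4 by 0.49 against 0.44. The differences of these values were -0.17 (SE 0.15, adjusted p = 0.907), 0.19 (SE 0.13, adjusted p = 0.858) and 0.05 (SE 0.13, adjusted p = 0.97) in edgeR. None of the 5 carriers passed, where 0.0975% of genes were called with a more positive difference in fasted and 0.122% with a more negative one. None of the 5 had an unadjusted p under 0.05, and DESeq2 called none. Without fed 1, Slco1a1 was called (0.48, adjusted p = 0.0351) among 0.738% of genes. Without fed 2, Slco1b2 (-0.43, adjusted p = 0.00652) and Slc10a1 (-0.58, adjusted p = 0.0248) were called among 1.56% of genes. Of the other genes of the route, 0 of 71 passed, while 13 had an unadjusted p under 0.05, against 7.08% of all genes, and DESeq2 called 0. The smallest p was that of Nr0b2, the gene of the bile acid-induced repressor SHP (-1.02, SE 0.21, edgeR adjusted p = 0.0627). Its ratio of pericentral to periportal was 0.720 and 0.797 in fasted libraries, against 1.79 and 0.978 in fed ones. The next by p were Foxa3 (0.46), Abcb4 (-0.33), Slc16a10 (0.32), Ppara (-0.29), Klb (0.40) and Slc10a7 (0.32), with adjusted p from 0.126 to 0.434 in edgeR. Foxa3 and Ppara encode transcription factors of the liver, and Klb the co-receptor of FGF15.

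The ratio of fasted to fed means was much the same in each zone of the lobule. For Slco1a4 it was 2.82 in the periportal, 3.15 in the middle and 3.12 in the pericentral zone. For Slco1a1 it was 0.297, 0.336 and 0.332, and for Slc10a1 2.35, 2.51 and 2.31 in the same order. In each zone the libraries of the 2 groups did not overlap for these 3 genes, against 35.9%, 35.2% and 34.4% of all genes in the periportal, middle and pericentral zone. Slco1b2 ran from 1.08 in the periportal to 0.944 in the pericentral zone, with overlap in each.

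Values by hepatocyte cluster within a library are given as a description, without a test. Slco1b2 was at 4596 and 2726 CPM in the nuclei of the cluster led by Slc22a3, Slc1a2 and Glul in fasted 1 and fasted 2. In fed 1 and fed 2 it was at 4778 and 3666 CPM in 2 other clusters with Slc1a2 or Glul among their leading genes. In the other hepatocyte clusters it did not exceed 3986 CPM in any cluster and library with at least 50 nuclei. In fed 1, Slco1a1 was at 535 CPM in the acute-phase cluster, against 946 CPM in the cluster led by Hsd3b5. The same clusters held Slco1b2 at 1660.2 against 2324 CPM and Slco1a4 at 89.2 against 106 CPM. Slc10a1 was at 59.5 against 49.5 CPM and Slco2b1 at 64.5 against 51.5 CPM.

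Across cell types, Slco2b1 stood apart from the other 4 carriers, with its highest level in stellate cells, the vitamin A-storing cells beside the sinusoid. Slco2b1 was at 69.9 and 112 CPM in hepatocytes of the fasted libraries and 54.9 and 106 CPM in those of the fed ones. Its stellate level was 200 and 583 CPM in the fasted libraries and 181 and 286 CPM in the fed ones, on 350, 252, 133 and 26 UMIs. The stellate value was above the hepatocyte value in all 4 libraries, and the ranges did not overlap. The log2 fold change, hepatocytes minus stellate cells, was -1.67 (SE 0.22, edgeR adjusted p = 4.3e-08), where 20.7% of the 9847 genes tested were called lower in hepatocytes and 20.8% higher. This call held in all 6 alternatives that were run, from -1.92 to -1.51. The calls of the other 4 carriers, higher in hepatocytes, held there too, except that of Slc10a1 without fasted 2 (adjusted p = 0.0524).

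With every nucleus thinned to 500 UMIs, Slco2b1 was found in 3.82% and 6.46% of hepatocytes of the fasted libraries and 2.74% and 5.23% of those of the fed ones. In stellate nuclei it was found in 14.6% (95% exact binomial interval 12.3% to 17.2%) and 25.4% (20.9% to 30.2%) in the fasted libraries. In fed stellate nuclei it was found in 9.78% (7.32% to 12.7%) and 14.4% (7.92% to 23.4%). Unthinned, the shares were 21.0% and 33.6% of fasted and 15.8% and 15.4% of fed hepatocytes, and 31.4% and 45.6% of fasted and 21.6% and 21.1% of fed stellate nuclei. Median UMIs per nucleus were 1282 to 3239 in hepatocytes and 784 to 1116 in stellate nuclei. The intervals cover counting error only.

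RNA of hepatocytes was found in nuclei of all other types. The median level of the 12 hepatocyte markers in stellate nuclei was 69.0% and 33.6% of that in hepatocytes in the fasted libraries, and 42.0% and 43.8% in the fed ones. Slc10a1 in stellate nuclei was at 44.3% to 67.1% of its hepatocyte level over the libraries, Slco1b2 at 35.6% to 58.1%, Slco1a1 at 40.8% to 62.4% and Slco1a4 at 34.7% to 69.0%. Over the libraries, the ranges of these 4 carriers lay within the 33.6% to 69.0% spanned by the marker medians. Single markers ran from 10.1% to 103%. Slc10a1 was above the median of its own library in fasted 2, fed 1 and fed 2 (44.3%, 62.7% and 61.7%) and below it in fasted 1. Slco1b2, Slco1a1 and Slco1a4 fell on both sides. Whether free RNA or RNA of stellate cells gave the values of these 4 carriers was not tested, and no expression in stellate cells is read from them. Slco2b1 stood at 270% to 523%. Summed stellate markers were at 19.6 to 74.0 CPM in hepatocytes, against 4394 to 6871 CPM in stellate nuclei.

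**Figure D4:**
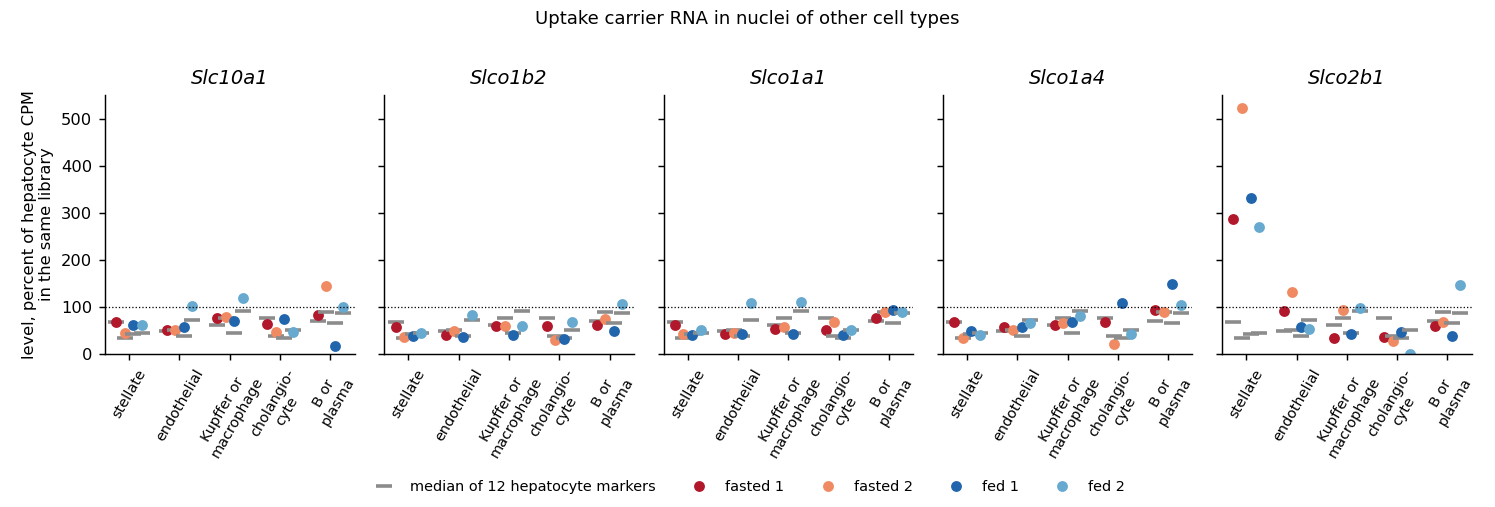
Level of each carrier in nuclei of 5 other cell types as percent of its hepatocyte CPM in the same library, with 1 point per library and a grey dash for the median of the 12 hepatocyte markers in that type and library. In stellate cells the points of Slc10a1, Slco1b2, Slco1a1 and Slco1a4 lie between 34.7% and 69.0%, and those of Slco2b1 between 270% and 523%. In other types some points lie far from their dash on either side. In B or plasma cells of fed 1, Slco1a4 is at 149% and Slc10a1 at 18.2%, against a median of 66.9%.

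Against endothelial nuclei, Slco2b1 showed no called difference and the other 4 carriers were higher in hepatocytes. Hepatocytes minus endothelial nuclei, the log2 fold changes were 0.93, 1.15, 1.05 and 0.97 for Slc10a1, Slco1b2, Slco1a1 and Slco1a4, all called by edgeR among 26.2% of genes called higher and 25.4% lower. The value of Slco2b1 was 0.36 (SE 0.22, edgeR adjusted p = 0.180). Its endothelial level was 90.8% and 133% of the hepatocyte level in the fasted libraries and 57.1% and 52.8% in fed 1 and fed 2. The marker medians there were 49.8% and 50.9%, and 37.8% and 73.2%, in the same order. The fed 2 value rests on 7 UMIs. Whether free RNA or RNA of endothelial cells gave these values was not tested. In the order of mean levels over the tested types, Slco2b1 stood highest in stellate cells, followed by hepatocytes, endothelial nuclei, B or plasma cells, Kupffer cells or macrophages and cholangiocytes. Only the step from stellate cells to hepatocytes was free of overlap between libraries. Slco1b2, Slco1a1 and Slco1a4 had their highest mean in hepatocytes, and Slc10a1 in B or plasma cells on between 1 and 86 UMIs per library, but every step in these orders overlapped.

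Against Kupffer cells or macrophages, edgeR called 4 of the 5 carriers higher in hepatocytes, where 18.7% of genes were, all but Slc10a1 (0.49, SE 0.21, adjusted p = 0.0611), and 18.8% were called lower. The calls of Slco1a1, Slco1a4 and Slco2b1 were lost without fed 1 (adjusted p = 0.0750, 0.0588 and 0.0943), and those of Slco1a4 and Slco2b1 also without fasted 1 (adjusted p = 0.0663 and 0.142). Slc10a1 was called higher than in Kupffer cells or macrophages in 1 of 6 alternatives (adjusted p = 0.0223). Against cholangiocytes all 5 were called higher, where 17% of genes were and 13.9% lower. The calls of Slc10a1 and Slco1a4 were lost there without fasted 2 (adjusted p = 0.0849 and 0.0832). Slco2b1 had the largest value there, 1.85 (SE 0.37), with 11 and 5 UMIs in cholangiocytes of the fasted libraries and 5 and 0 in those of the fed ones. Against B or plasma cells 1 of the 5 was called higher, Slco1b2 (0.88, adjusted p = 0.00281), where 7.85% of genes were and 7.87% lower. This call was lost without fed 1 (adjusted p = 0.244). Slco2b1 was called higher than in B or plasma cells in 2 of 6 alternatives (lowest adjusted p = 0.0291).

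With RLE scaling in place of TMM the medians of these type comparisons shifted by -0.18 to -0.25, and 2009 genes were called higher and 3032 lower in hepatocytes against endothelial nuclei, in place of 2583 and 2505. Against stellate cells the split was 1418 and 2486 in place of 2053 and 2037, against Kupffer cells or macrophages 1084 and 2226 in place of 1844 and 1850, against cholangiocytes 1020 and 1730 in place of 1678 and 1365, and against B or plasma cells 182 and 913 in place of 773 and 775. Slco2b1 had the lowest value of the 5 against stellate cells under RLE scaling too, at -1.92, with the other 4 between 0.63 and 1.07.

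Feeding was also compared within the 3 largest other types, where hepatocyte RNA is part of what is counted. Slco1a1 in endothelial nuclei was at 113 and 72.7 CPM in fasted libraries, against 362 and 495 CPM in fed ones (-2.21, SE 0.40, adjusted p = 0.136 in edgeR and 0.00363 in DESeq2, which called 0.148% of genes lower). None of the 5 passed edgeR in endothelial nuclei, where 0.0295% of genes were called higher and 0.0295% lower and 3 of the 5 had an unadjusted p under 0.05, against 3.93% of genes. Without fed 1 and without fed 2 edgeR called Slco1a1 there (-2.49 and -1.92), where 0.672% and 0.386% of genes were called lower. Without fed 2, when 0.605% were called higher, it also called Slco1a4 (2.30, adjusted p = 0.000133) and Slco2b1 (1.76, adjusted p = 0.0453). In Kupffer cells or macrophages edgeR called 0% of genes in either direction, and 2 of the 5 carriers had an unadjusted p under 0.05, against 2.79% of genes. DESeq2 called 5 genes higher and 5 lower there and none of the carriers. Slco2b1 in stellate cells, its type of highest level, had a log2 fold change of 0.78 (SE 0.55, adjusted p = 1.000 in edgeR), with the fed 2 value on 26 UMIs. None of the 5 passed edgeR in stellate cells, where 0.0266% of genes were called higher and 0.0133% lower, and 2 of the 5 had an unadjusted p under 0.05, against 3.09% of genes. Of the other genes of the route, edgeR called 0 of 68 in endothelial nuclei, 0 of 64 in Kupffer cells or macrophages and 0 of 58 in stellate cells. In the same order 5, 6 and 3 had an unadjusted p under 0.05, and DESeq2 called 1, 0 and 0.

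Genes most like each carrier were sought over 12 hepatocyte sums, 4 libraries by 3 zones of the lobule, as Pearson's r of log2(CPM + 1) over 7827 genes with a mean of at least 10 CPM. The 12 sums come from 4 libraries and share their depth, so r is a description. Slc10a1 was nearest to Cpt1a (0.980), the carnitine transferase that lets fatty acids into mitochondria, Brap (0.980) and Hibch (0.979), an enzyme of valine breakdown. Among the 3 genes nearest to Slco1b2 were Slc19a2 (0.979), a thiamine carrier, and Cyp2a5 (0.972), a cytochrome P450. Slco1a1 was nearest to Slc22a28 (0.984), Zc3h7a (0.978) and Rev3l (0.977). Among the 3 nearest to Slco1a4 were Gstt2 (0.995), a glutathione transferase, and 4931428L18Rik (0.990). Slco2b1 was nearest to Arhgef7, Cabin1 and Bicral (0.974, 0.974 and 0.973). Among the carriers themselves, r was 0.90 between Slc10a1 and Slco1a4, -0.92 between Slc10a1 and Slco1a1 and -0.86 between Slco1a1 and Slco1a4. Slco1b2 stayed within -0.33 and 0.35 with each of the other 4.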

How the data were processed

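Nuclei of fasted and fed mouse liver (2 libraries each) were analysed from raw UMI counts per gene and barcode, as deposited by the authors. The authors used Cell Ranger 6.0 and the mm10 build, per the submitters' processing notes. Whether intronic reads were counted was not given in the sources used here. Of the stored entries, 13.2% to 17.0% were 0, which a plain count table does not store, so some counts may have been lowered before deposit.

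Barcodes with 500 genes or more and mitochondrial UMIs up to 5% were kept. Scrublet (scanpy 1.11.5) scored doublets, and the highest scores were removed at 0.8% per 1000 barcodes (1108, 450, 758 and 233 in fasted 1, fasted 2, fed 1 and fed 2), a rule chosen because the automatic threshold marked 1857, 1, 1 and 0. Clustering (2000 variable genes, 30 components, 15 neighbours, leidenalg 0.10.2) left out all Slco and Slc10 genes. Counts were summed per library and type and tested in edgeR 4.0.16 (quasi-likelihood F test, TMM, filterByExpr, robust; R 4.3.3) over all genes, with Benjamini-Hochberg adjustment and a threshold of 0.05. The type comparisons covered the 6 types that had 20 nuclei or more in each library, with library as a block. DESeq2 1.42.0 (Wald test) was an alternative. Standard errors (SE) divide the log2 fold change by the root of F. CPM divide a gene's count by the total of its sum and were not compared between genes. The lobule score was the mean z-score of landmarks found in 2% or more of hepatocytes, 9 of 15 pericentral minus 12 of 13 periportal. It used nuclei thinned to 1500 UMIs and omitted shallower ones (593, 337, 728 and 2235, in the same order). Landmarks were left out of counts by position.

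Further alternatives were RLE scaling, no low-count filter, leaving out each library, a block for the replicate number, stored zeros counted as 1, thinned nuclei, a minimum of 1000 genes, automatic doublet thresholds, the outer 2 of 5 bins, odd or even landmarks, an unthinned score, and hepatocytes without the acute-phase cluster. Tests were also run on simulated counts. The members, gene lists and motifs were chosen with earlier results of these data known. Named are the members, the listed route genes past the threshold or, where under 8 pass, the 8 with the smallest p (in hepatocytes; in other types only counts are given), the 3 most alike genes per member and up to 4 genes per other list. A few genes that this rule names are not reported here.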

Additional observations from a re-analysis of the deposited data

How the results depend on the processing

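The calls that Slco1b2, Slco1a1 and Slco1a4 were higher in pericentral hepatocytes, and that Slco2b1 was lower in hepatocytes than in stellate cells, held under every alternative run for them. The feeding differences depended on the setting; unless a value shows it, the cause was not tested. With 2 libraries a group, each value rests on few preparations.

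Counts of genes called (higher and lower) by feeding in hepatocytes were 76 and 90 in DESeq2, 147 and 128 without the low-count filter, and 12 and 16 with the replicate block. None were called higher (0) with thinned nuclei or with stored zeros counted as 1. In endothelial nuclei DESeq2 called 15 lower, RLE scaling gave 1 and 0, no filter 22 and 24, and the block 86 and 59. In Kupffer cells or macrophages DESeq2 gave 5 and 5, no filter 11 and 15, and the block 67 and 33. In stellate cells DESeq2 gave 4 and 2, no filter 5 and 9, and the block 31 and 19. By position DESeq2 called 637 lower. For the interaction DESeq2 gave 0 and 5, no filter 52 and 45, the unthinned score 43 and 35, and the outer 2 of 5 bins 3 higher.

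Leaving out 1 library gave 3 to 140 genes higher and 0 to 135 lower by feeding in hepatocytes, 4 to 69 and 2 to 67 in endothelial nuclei, 2 to 5 and 0 to 10 in Kupffer cells or macrophages, and 0 to 27 and 2 to 18 in stellate cells. By position it gave 663 to 953 and 613 to 895, and for the interaction 0 to 70 and 0 to 129.

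Among the type comparisons, leaving out 1 library moved the number of genes called from 3083 to 5432 against endothelial nuclei, 1593 to 4053 against Kupffer cells or macrophages, 2558 to 4182 against stellate cells, 1394 to 3014 against cholangiocytes and 449 to 1551 against B or plasma cells.

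Some carrier values, none of them called where the sign was turned, changed sign. By feeding in hepatocytes, Slco1b2 was at -0.039 with a minimum of 1000 genes, -0.044 with thinned nuclei, -0.033 with the replicate block and -0.080 without the acute-phase cluster. By position, Slc10a1 was at 0.013 with even landmarks. For the interaction, Slco1a4 was at -0.057 with even landmarks and -0.095 with the outer 2 of 5 bins. Against B or plasma cells, RLE scaling gave -0.11 for Slc10a1 and -0.00083 for Slco1a4.

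Leaving out 1 library gave the following ranges for carriers whose sign changed. By feeding in hepatocytes they were -0.49 to 0.41 for Slco1b2 and -0.32 to 0.77 for Slco2b1. In endothelial nuclei they were -0.43 to 1.67 for Slc10a1 and -0.88 to 0.34 for Slco1b2. In Kupffer cells or macrophages they were -0.012 to 2.10 for Slc10a1, -0.19 to 0.71 for Slco1b2 and -1.29 to 1.59 for Slco2b1. In stellate cells they were -0.69 to 1.05 for Slco1b2 and -0.10 to 1.38 for Slco2b1. By position it was -0.15 to 0.068 for Slc10a1. For the interaction they were -0.58 to 0.27 for Slc10a1, -0.43 to 0.089 for Slco1b2, -0.032 to 0.48 for Slco1a1 and -0.13 to 0.24 for Slco1a4. Against B or plasma cells it was -0.13 to 0.67 for Slc10a1.

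The replicate numbers carry no stated link between libraries. Deviations of same-numbered libraries correlated at 0.425 over 13987 genes, with only 2 pairs. With the block, edgeR called no carrier in hepatocytes. It called Slco1a1 (adjusted p = 3.0e-06) and Slco1a4 (0.00197) in endothelial nuclei, where 86 genes were called higher and 59 lower. In Kupffer cells or macrophages it called both (0.000121 and 0.00589), where 67 genes were called higher and 33 lower. In stellate cells it called Slco1a4 (0.00307), where 31 genes were called higher and 19 lower. Without the block these counts were 3 and 3, 0 and 0, and 2 and 1 in the same order. Hepatocyte RNA is part of what is counted in these types.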
